A study of Mus musculus with 24 samples.

Results

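The comparison set inguinal fat of mice carrying an irisin vector against inguinal fat of mice carrying a GFP vector, all of them on a high-fat diet (HFD). The genes described are those that reached 0.5 FPKM in 3 or more of these 6 libraries, which kept 14611 of the 54532 genes of the deposited table, 12173 of them protein coding. FPKM is a level of fragments corrected for gene length and for a scaling total of the library. The irisin group was C57BL6 mice that received AAV-irisin, an adeno-associated virus made to deliver irisin, and HFD for 18 weeks. The GFP group was C57BL6 mice that received AAV-GFP, the control virus, and HFD for the same time. Each group had 3 libraries, called irisin 1 to 3 and GFP 1 to 3 below, out of 24 libraries in 8 groups that also cover chow and epididymal fat. The labels give neither the age and sex of the mice nor the promoter and the target tissue of the vector. Nor is it stated that each library is a mouse of its own, so a p-value covers just the variation among the libraries of a group. By its title, the series was concerned with IL-33 and its receptor ST2.

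Irisin is the extracellular piece of the membrane protein FNDC5, known as a hormone that working muscle releases and that has been linked to a thermogenic state of white fat. IL-33 is an alarm cytokine of stromal cells, and its receptor ST2, made from Il1rl1, sits on mast cells, innate lymphoid cells and regulatory T cells of fat. Inguinal fat (iWAT) lies under the skin around a lymph node and is the white depot in which beige adipocytes appear most readily.

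The 6 libraries held 14.6 to 19.7 M gene reads each, and 1 FPKM in a gene of 2000 bases stood for 26.7 to 39.3 reads. The depot labels fitted the marker genes: Tbx15, a transcription factor of subcutaneous fat, lay at 3.70, 5.38 and 4.76 FPKM in irisin 1 to 3 and at 2.88, 3.92 and 4.68 FPKM in GFP 1 to 3. Wt1, which marks the mesothelium of visceral fat, was listed at 0 in all 6 libraries, and 0 of the 8 mesothelial markers passed the filter. The library GFP 1 stood apart from the other 5. It was the highest of the 6 libraries for 27.6% of the genes tested and the lowest for 32.4%, and 159 genes reached 1 FPKM in it while listed at 0 in the other 5, against 11 to 31 such genes for each of the other libraries.

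GFP 1 was rich in lymphocyte and lymph node transcripts. The 13 B cell markers summed to 18.1, 22 and 17.6 FPKM in irisin 1 to 3 and to 558, 17 and 35 FPKM in GFP 1 to 3. Ebf1, the only member not highest in GFP 1, made up a large part of the sums outside GFP 1. It was at 12.5, 19.5 and 13.8 FPKM in irisin 1 to 3 and at 12.3, 12.8 and 17.7 FPKM in GFP 1 to 3. The 20 markers of T and natural killer cells summed to 24.3, 16.4 and 19.2 FPKM in the irisin libraries and to 431, 36.4 and 22.2 FPKM in the GFP libraries. Ccl19 and Glycam1, a chemokine and a vessel mucin of lymph nodes, were at 15.8 and 9.21 FPKM in GFP 1 and at 0 in each of the other 5 libraries. GFP 1 also had the smallest share of reads from the 13 respiratory genes of the mitochondrial genome, 2.88% against 4.01% to 6.43% in the others, and the largest share from 52 cytosolic ribosomal protein genes, 2.02% against 0.949% to 1.22%. GFP 2 and GFP 3 differed from the other 4 libraries in another way, through hepatocyte transcripts, which are described at the end. List medians and the log2 differences printed are therefore given with all 6 libraries and again without GFP 1. In bulk tissue, fewer cells of a type and less RNA per cell cannot be told apart.

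**Figure D1:**
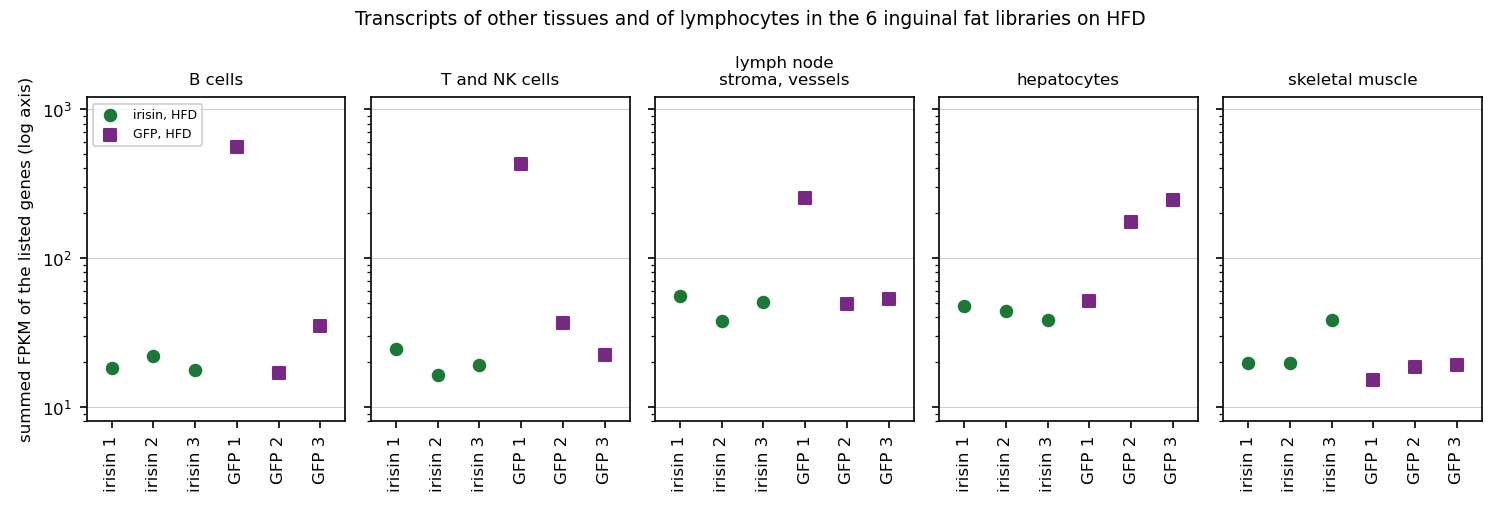
Summed FPKM (log axis) of the listed marker genes in each of the 6 libraries, irisin left and GFP right, with a panel for each marker list. GFP 1 holds 558 FPKM of B cell markers and 431 FPKM of T and natural killer cell markers, and GFP 2 and GFP 3 hold 174 and 245 FPKM of hepatocyte markers. Outside GFP 1 a large part of the B cell sum is Ebf1.

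No gene was called in the comparison. With limma on log2(FPKM + 0.5), 0 of 14611 genes (0%) had an adjusted p under 0.05, and the lowest adjusted p was 0.722. At an unadjusted p under 0.05 stood 362 genes, 144 higher (0.986% of the genes tested) and 218 lower (1.49%) in irisin fat. limma's voom on the reads recovered from the FPKM called 0 genes as well, with 284 at an unadjusted p under 0.05. Without GFP 1 limma again called 0 genes, 179 stood at an unadjusted p under 0.05, and the lowest adjusted p was 0.764. Other single libraries moved that unadjusted count as well, to 1456 without GFP 3, 745 without irisin 1 and 691 without GFP 2, each with 0 genes called. In simulated libraries of this size, 35% of 2-fold changes and 73% of 4-fold changes were called. Their noise was drawn for each gene on its own, with a spread pooled over the 4 inguinal groups. They held no outlying library such as GFP 1, so these shares may not hold for the data. With 3 libraries against 3 an exact permutation test cannot give a p under 0.1. Everything below is thus a difference in level that did not pass the test, given with its spread.

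Large differences lay mostly on the lower side. Of the 361 genes that differed by at least 2-fold, 39 were higher (0.267%) and 322 lower (2.20%) in irisin fat. Without GFP 1 this changed to 61 higher (0.417%) and 123 lower (0.842%). The median log2 difference over all genes was 0.01, and -0.0011 without GFP 1, and the median standard error was 0.23. In 481 genes (3.29%) every irisin library lay above every GFP library, and in 423 genes (2.90%) every irisin library lay below every GFP library.

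The genes that separated the groups most clearly on the higher side had low or middle levels. Lipt2 (chromosome 7, positions 100159277 to 100161365) encodes a lipoyl(octanoyl) transferase of lipoate synthesis in mitochondria. It was at 5.28, 5.68 and 4.96 FPKM in irisin 1 to 3 and at 2.48, 3.02 and 3.23 FPKM in GFP 1 to 3. It averaged 5.30 ± 0.360 FPKM in irisin fat and 2.91 ± 0.390 FPKM in GFP fat (SD, n = 3 each), a log2 difference of 0.77 ± 0.15 (SE) with an adjusted p of 0.840 in limma. Its groups did not overlap, and without GFP 1 the difference was 0.68. On chow it was 0.12 and in epididymal fat on HFD -0.02. Pebp1, which encodes a phosphatidylethanolamine-binding inhibitor of Raf kinase, was at 77.4, 84.7 and 85.9 FPKM in irisin fat and at 54.5, 61.8 and 56.5 FPKM in GFP fat. The lowest irisin library thus stood well above the highest GFP library, and the log2 difference was 0.52 ± 0.13, or 0.48 without GFP 1. H1f0, a linker histone of resting cells, was at 56.5, 51.8 and 53.8 FPKM in irisin fat and at 32.6, 40.4 and 42.8 FPKM in GFP fat, with a log2 difference of 0.49 ± 0.14, or 0.37 without GFP 1. Msantd3 was at 8.59, 11.0 and 10.3 FPKM in irisin fat and at 4.62, 6.76 and 7.58 FPKM in GFP fat (log2 0.64 ± 0.18, or 0.44 without GFP 1). Plin5, a lipid droplet coat protein that tethers droplets to mitochondria, was at 14.0, 16.3 and 15.7 FPKM in irisin fat and at 6.66, 11.5 and 10.4 FPKM in GFP fat, so GFP 1 was its lowest library, and the difference of 0.69 ± 0.30 came to 0.47 without it. Id1, an inhibitor of differentiation that responds to BMP signals, was at 39.6, 18.3 and 26.1 FPKM in irisin fat and at 14.6, 17.2 and 14.9 FPKM in GFP fat, so its irisin libraries were spread widely. Yjefn3 differed by 0.82 ± 0.24, or 0.79 without GFP 1, but it overlaps the abundant gene Ndufa13 on the same strand, and reads of the overlap cannot be assigned to either.

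On the lower side the genes with the smallest p were of several kinds. Rnf213, a giant ubiquitin ligase that interferon induces (chromosome 11, positions 119393100 to 119487418), was at 4.54, 4.34 and 4.47 FPKM in irisin fat and at 11.5, 6.65 and 6.27 FPKM in GFP fat. The irisin libraries were nearly equal and all 3 GFP libraries lay above them, and the log2 difference was -0.75 ± 0.22, or -0.49 without GFP 1 (limma adjusted p = 0.941 with all 6 libraries). Inpp4b, a phosphatase of phosphoinositide signalling, was at 1.04, 0.849 and 1.41 FPKM in irisin fat and at 2.90, 2.47 and 1.5 FPKM in GFP fat (log2 -0.78 ± 0.23, or -0.62 without GFP 1). Rab20, a small GTPase of phagosomes that interferon gamma and hypoxia induce, was at 0.934, 0.754 and 0.921 FPKM in irisin fat and at 2.38, 1.71 and 1.34 FPKM in GFP fat. Malt1, the paracaspase of antigen receptor signalling to NF-kB, was at 2.57, 1.85 and 2.62 FPKM in irisin fat and at 7.38, 3.13 and 3.93 FPKM in GFP fat. Its difference of -0.83 came to -0.51 without GFP 1. Stard10, a phospholipid transfer protein, was at 0.784, 0.589 and 0.645 FPKM in irisin fat and at 3.22, 1.07 and 2.0 FPKM in GFP fat. Of the 8 lowest differences among protein-coding genes whose groups lay apart, those of Fabp1 (-3.23, a liver gene highest in GFP 3), Slfn1 (-2.31) and Haao (-2.26), an enzyme gene of tryptophan breakdown, were -4.42, -1.40 and -1.15 without GFP 1. Fabp1 and Slfn1 reached the filter in GFP libraries alone and had to differ. The other 5, Cd79b of the B cell receptor at -2.88, Btla at -2.32, Il7r at -2.14, Ptprcap at -2.13 and Ms4a4c at -2.09, are genes of lymphocytes and other leukocytes. These 5, and also Slfn1 and Haao, were highest in GFP 1, and without it the differences of these 5 were -1.06, -0.83, -1.09, -0.58 and -1.01. Ptprcap overlaps Rps6kb2 on the opposite strand.

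**Figure D2:**
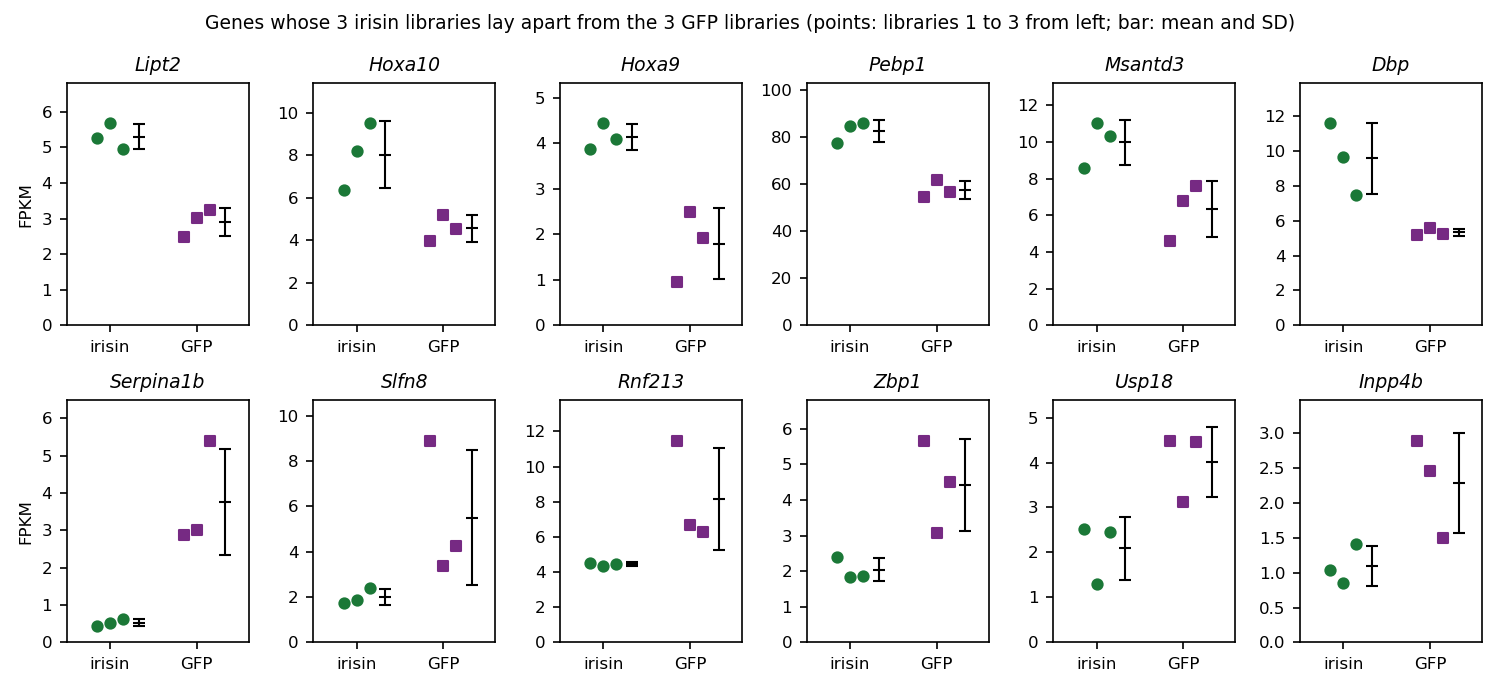
FPKM in the 3 irisin libraries (left) and 3 GFP libraries (right) of genes whose groups lay apart, with a panel for each gene and linear axes from 0. Points are libraries 1 to 3 from left to right and the bar is the mean with its SD. For Lipt2 the irisin libraries sit between 4.96 and 5.68 FPKM and the GFP libraries between 2.48 and 3.23 FPKM.

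The vector and its pathway came next. Fndc5, the gene of the irisin precursor (chromosome 4, positions 129136999 to 129144593), was at 0.392, 3.17 and 3.91 FPKM in irisin 1 to 3 and at 0.258, 0.163 and 0.193 FPKM in GFP 1 to 3. These values rest on 20, 117 and 194 reads in the irisin libraries and on 14, 7 and 10 reads in the GFP libraries. Every irisin library was above every GFP library, but irisin 1 only slightly, and the gene stayed under the filter. The skeletal muscle gene Ckm was at 0, 0.0257 and 1.15 FPKM in the irisin libraries and at 0 in the 3 GFP libraries, so muscle transcripts were found beside Fndc5 in irisin 3 and hardly in irisin 2. The share of vector transcripts among these reads was not tested. The integrin subunits proposed as an irisin receptor overlapped between the groups. Itgav was at 2.48, 3.62 and 4.57 FPKM in irisin fat and at 3.09, 5.63 and 3.78 FPKM in GFP fat (log2 -0.20 ± 0.35, or -0.37 without GFP 1). Itgb5 was at 75.5, 44.1 and 80.8 FPKM in irisin fat and at 47.0, 73.8 and 72.3 FPKM in GFP fat, and its log2 difference of 0.03 was -0.18 without GFP 1, -0.09 with quantile scaling and -0.08 with voom.

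Il33 (chromosome 19, positions 29925114 to 29960718) was at 1.595, 1.19 and 1.54 FPKM in irisin fat and at 6.12, 1.43 and 1.11 FPKM in GFP fat. GFP 1 alone lay above the rest, and the log2 difference of -0.50 ± 0.68 was 0.14 without it. Il1rl1, the gene of the receptor ST2 (chromosome 1, positions 40429570 to 40465415), was at 1.13, 1.01 and 1.37 FPKM in irisin fat and at 1.54, 1.5 and 1.24 FPKM in GFP fat. Its groups overlapped, and the log2 difference was -0.21 ± 0.23, or -0.16 without GFP 1. Of the 22 genes listed for IL-33, ST2 and type 2 signalling 16 passed the filter, 13 of them lower (a log2 difference under 0 was found in 47.9% of all genes) and 3 higher, with a median of -0.20. Without GFP 1 the median was -0.07, with 10 lower and 6 higher. Myd88, the adaptor that ST2 shares with Toll-like receptors, was at 9.95, 6.92 and 7.14 FPKM in irisin fat and at 12.8, 9.63 and 9.70 FPKM in GFP fat, where irisin 1 overlapped the GFP libraries. Irak4, the kinase next to it, was at 3.38, 2.67 and 3.47 FPKM in irisin fat and at 4.66, 4.39 and 3.49 FPKM in GFP fat, with groups that lay apart by a narrow margin. Foxp3, the defining factor of regulatory T cells, was at 0.0679, 0.150 and 0.0559 FPKM in irisin fat and at 2.27, 0.162 and 0.187 FPKM in GFP fat and stayed under the filter. Of 14 regulatory T cell markers 6 passed, 5 of them lower, with a median of -0.62 that came to -0.21 without GFP 1.

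Mast cells carry ST2 as well. Of 13 mast cell and eosinophil markers 7 passed, and these 7 were lower in irisin fat, with a median of -0.82, or -0.56 without GFP 1. Mcpt4, a protease of connective tissue mast cells, was at 13.6, 6.63 and 4.93 FPKM in irisin fat and at 32.1, 19.5 and 10.05 FPKM in GFP fat (log2 -1.22 ± 0.87, or -0.83 without GFP 1). Tpsb2, a tryptase, was at 13.3, 7.07 and 5.67 FPKM in irisin fat and at 24.9, 18.5 and 8.67 FPKM in GFP fat. Both genes overlapped between the groups, since irisin 1 was above GFP 3. The same markers had a median log2 difference of 1.37 on chow and of -1.44 in epididymal fat on HFD. The irisin libraries on chow carried 4.83, 17.2 and 279 FPKM of Ckm, against 0 to 0.0213 FPKM in the GFP libraries on chow, so muscle transcripts came with the chow values.

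Interferon response genes, the antiviral and signalling genes that type I interferon switches on, were lower in irisin fat across most of the list. Of 46 listed genes 45 passed the filter, and 42 of these were lower (47.9% of all genes were) and 3 higher, with a median log2 difference of -0.37 beside 0.01 over all genes. In 11 of the 45, 24.4%, every irisin library lay below every GFP library, against 2.90% of all genes. Without GFP 1 the count was 39 lower and 6 higher (50.3% of all genes were lower), the median -0.31, and 16 members (35.6%, against 5.28% of all genes) lay below both remaining GFP libraries. No member was called in limma. Irisin 2 was the lowest of the 6 libraries for 30 of the 45 genes, and without that library the median was -0.23. On chow, 39 of the 45 were higher in irisin fat, with a median of 0.23. In epididymal fat on HFD 11 were higher, with a median of -0.23. The limma tests of the difference between diets and between depots called 0 of 14611 genes each, with 875 and 320 genes at an unadjusted p under 0.05. Leaving out 1 library at a time moved these counts to 408 to 1847 for the diets and 237 to 704 for the depots.

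Zbp1, a sensor of viral nucleic acids (chromosome 2, positions 173206612 to 173218923), was at 2.41, 1.83 and 1.88 FPKM in irisin 1 to 3 and at 5.67, 3.09 and 4.51 FPKM in GFP 1 to 3. The groups lay apart, with a log2 difference of -0.93 ± 0.31, or -0.75 without GFP 1 (limma adjusted p = 0.941 with all 6 libraries). Usp18, the protease that removes ISG15 and damps interferon signalling, was at 2.52, 1.29 and 2.46 FPKM in irisin fat and at 4.49, 3.12 and 4.45 FPKM in GFP fat. Its difference was -0.83 ± 0.28, or -0.75 without GFP 1. Oasl1, a member of the oligoadenylate synthetase family, was at 1.16, 0.575 and 0.705 FPKM in irisin fat and at 1.95, 1.41 and 2.70 FPKM in GFP fat (log2 -0.93 ± 0.36, or -0.94 without GFP 1). Mx1, an antiviral GTPase, was at 1.06, 0.455 and 0.795 FPKM in irisin fat and at 4.28, 0.971 and 3.73 FPKM in GFP fat, and irisin 1 overlapped GFP 2. Its difference was -1.31 ± 0.42, or -1.0 without GFP 1. Dhx58, a regulator of RNA sensing, was at 2.78, 1.6 and 2.32 FPKM in irisin fat and at 3.51, 2.82 and 3.56 FPKM in GFP fat. Isg15, the ubiquitin-like protein that interferon induces, was at 7.67, 3.67 and 7.89 FPKM in irisin fat and at 6.93, 6.82 and 13 FPKM in GFP fat, so that its groups overlapped. Ifi27 went the other way and was at 291, 405 and 363 FPKM in irisin fat and at 163, 288 and 345 FPKM in GFP fat. GFP 1 was the highest library for 17 of the 45 genes, GFP 3 for 13 and GFP 2 for 6.

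**Figure D3:**
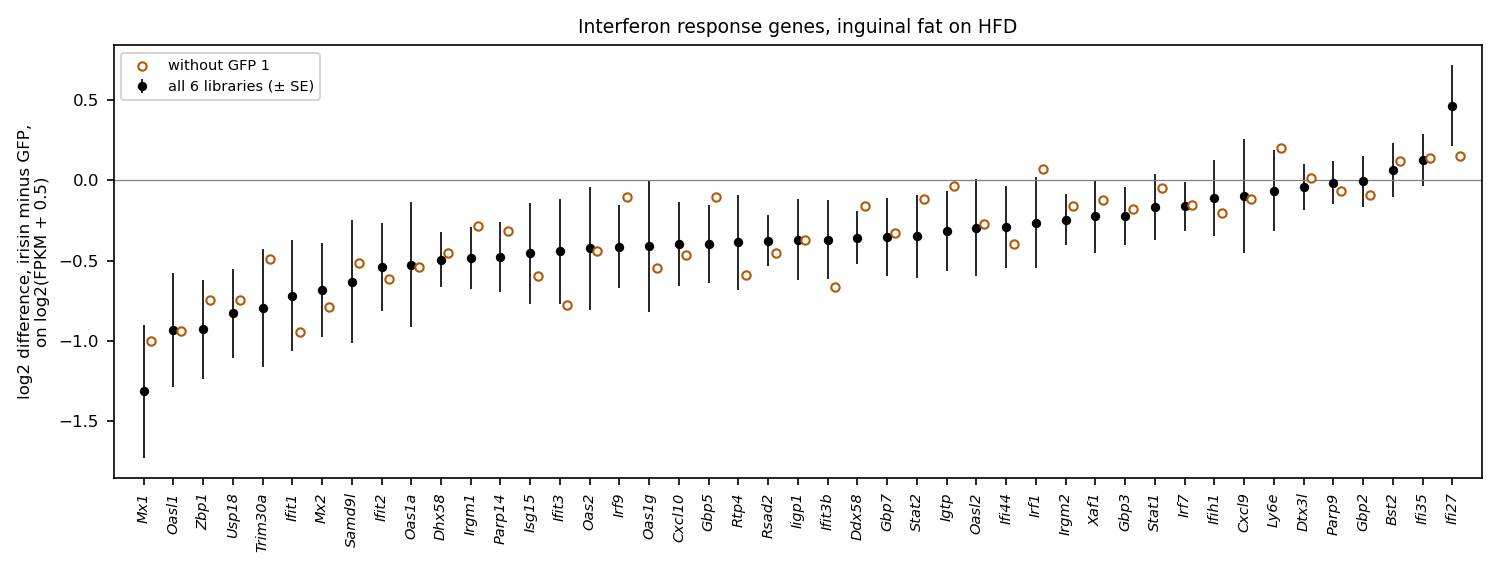
Log2 difference (irisin minus GFP, on log2(FPKM + 0.5)) of the 45 interferon response genes that passed the filter, with the SE as bars (black, all 6 libraries) and again without GFP 1 (open). With all 6 libraries 42 points lie below 0, and 39 do without GFP 1.

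The promoters of these genes show the letters that the interferon-activated factor ISGF3 and the IRF proteins are known to bind. The motif GAAANNGAAA was searched on both strands in the 250 bases before the start of each gene, in RefSeq windows on build GRCm38.p6. It was found in 18 of the 32 interferon genes with a window (56.2%) and in 325 of all 10024 tested genes with a window (3.24%). Of the 11 members whose groups lay apart 7 had a window and 4 held the motif. These 4 are printed in the direction of the gene, with the match in capitals and 30 bases of flank on either side, or up to the start of the gene where that is nearer (Trim30a).
Rsad2: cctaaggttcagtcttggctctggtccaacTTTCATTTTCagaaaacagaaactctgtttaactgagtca
Ifit1: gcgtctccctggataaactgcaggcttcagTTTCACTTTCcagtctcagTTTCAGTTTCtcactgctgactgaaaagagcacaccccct
Trim30a: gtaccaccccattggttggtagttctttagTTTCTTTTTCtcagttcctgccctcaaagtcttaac
Cxcl10: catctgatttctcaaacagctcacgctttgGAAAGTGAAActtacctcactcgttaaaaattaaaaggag
The stretch of Rsad2 is chr12:26456533-26456602 on the minus strand, with the match 120 bases before the start. That of Ifit1 is chr19:34640755-34640843 on the plus strand, with 2 matches, the nearer of them 85 bases before the start. That of Trim30a is chr7:104465194-104465259 on the minus strand, with the match 36 bases before the start. That of Cxcl10 is chr5:92349063-92349132 on the minus strand, with the match 213 bases before the start. A match describes the letters of the window and not binding in these mice.

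The 4 genes differed between the groups by different amounts. Rsad2, which encodes viperin, an enzyme that makes an antiviral nucleotide, was at 5.80, 5.24 and 4.99 FPKM in irisin fat and at 6.32, 6.84 and 8.18 FPKM in GFP fat (log2 -0.38 ± 0.16, or -0.45 without GFP 1). Ifit1, a binder of foreign RNA caps, was at 3.39, 2.23 and 3.44 FPKM in irisin fat and at 3.70, 4.25 and 8.86 FPKM in GFP fat (log2 -0.72 ± 0.35). For both genes GFP 3 was the highest library and GFP 1 the lowest of the GFP libraries, and the differences without GFP 1 were -0.45 and -0.94. Trim30a, a tripartite motif protein of innate immunity, was at 4.98, 3.70 and 4.72 FPKM in irisin fat and at 12.6, 6.58 and 6.24 FPKM in GFP fat (log2 -0.79 ± 0.37, or -0.49 without GFP 1). Cxcl10, a chemokine for T cells, was at 2.0, 2.36 and 1.56 FPKM in irisin fat and at 2.44, 2.40 and 3.43 FPKM in GFP fat (log2 -0.40 ± 0.26, or -0.46 without GFP 1), and its highest irisin and lowest GFP library were nearly equal.

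Schlafen genes, interferon-inducible genes of immune cells that lie together on chromosome 11, were added to the lists after their values were seen. Of 7 listed genes 5 passed the filter, and these 5 were lower in irisin fat, with a median of -1.16, or -0.78 without GFP 1. Slfn2, needed for T cell quiescence, was at 9.34, 4.14 and 6.63 FPKM in irisin fat and at 40.9, 13.8 and 10.8 FPKM in GFP fat. Slfn8 (positions 83002158 to 83020810) was at 1.72, 1.89 and 2.38 FPKM in irisin fat and at 8.89, 3.36 and 4.23 FPKM in GFP fat, with a log2 difference of -1.16 ± 0.32, or -0.78 without GFP 1. Slfn1 was at 0.494, 0.0402 and 0.0897 FPKM in irisin fat and at 11.4, 1.0 and 1.66 FPKM in GFP fat, and it passed the filter only through the GFP libraries, so it had to differ. In these 3 of the 5 genes (60.0%) the irisin libraries lay below all GFP libraries, against 2.90% of all genes. The list was made with these values known and Slfn1 had to differ, so this count is no support for a difference. In all 3 genes GFP 1, rich in lymphocyte transcripts, was the highest library. Slfn8 and Slfn9 are close copies, and the counting may have split reads between them.

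MHC class II genes, which present antigens to helper T cells, were lower in 13 of the 13 members that passed, of 15 listed, with a median of -0.83 and of -0.33 without GFP 1. H2-Aa, a chain of the class II molecule, was at 177, 90.6 and 136 FPKM in irisin fat and at 423, 186 and 143 FPKM in GFP fat, so irisin 1 overlapped GFP 3. Ciita, the master regulator of class II genes, was at 2.11, 0.707 and 1.26 FPKM in irisin fat and at 14.5, 2.25 and 1.37 FPKM in GFP fat. The scores of the list, mean log2 levels relative to the median of the 6 libraries, were 0.12, -0.98 and -0.31 in irisin 1 to 3 and 2.0, 0.12 and -0.12 in GFP 1 to 3. Irisin 2 had the lowest score, and GFP 1 was far above the rest. T and natural killer cell markers passed the filter in 12 of 20 cases, and these 12 were lower, with a median of -1.6 that came to -0.46 without GFP 1 (10 lower, 2 higher). Ncr1, a receptor that marks natural killer cells, was at 0.387, 0.389 and 0.543 FPKM in irisin fat and at 1.45, 0.921 and 0.865 FPKM in GFP fat. Its groups lay apart also without GFP 1, where the log2 difference was -0.57 beside -0.73 ± 0.23 with all libraries. Cd8b1, a chain of the co-receptor of killer T cells, was at 0.329, 0.505 and 0.564 FPKM in irisin fat and at 21.8, 1.09 and 1.19 FPKM in GFP fat, with GFP 1 far above all others. Of 13 B cell markers 4 passed, with a median of -2.67, or -0.76 without GFP 1. Ebf1, among these 4, differed by 0.09, or -0.0045 without GFP 1. Cd79a, a chain of the B cell receptor, was at 1.0, 0.669 and 0.994 FPKM in irisin fat and at 145, 0.487 and 5.19 FPKM in GFP fat, with GFP 2 below every irisin library.

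Macrophage markers did not separate the groups. Adgre1, the macrophage antigen F4/80, was at 22.95, 7.96 and 11.1 FPKM in irisin fat and at 12.1, 29.8 and 10 FPKM in GFP fat. Trem2, a lipid receptor of macrophages in obese fat, was at 4.07, 0.439 and 1.87 FPKM in irisin fat and at 1.49, 6.72 and 1.56 FPKM in GFP fat. In both genes irisin 1 and GFP 2 were the high libraries. The 18 markers of resident macrophages had a median of -0.15, with 12 lower and 6 higher, and the 16 markers of lipid-associated macrophages a median of -0.22, with 11 lower and 5 higher. The 5 higher ones were Lpl, Cd36, Fabp5, Fabp4 and Plin2. Of these Lpl, Cd36 and Fabp4 are also on the list of adipocyte identity, so the lipid-associated list is not of macrophages alone. Without GFP 1 the medians were -0.24 (15 lower, 3 higher) and -0.43 (14 lower, 2 higher). Both medians turned to 0.10 or more without GFP 2 and without irisin 2, so their direction rests on single libraries. Of 29 chemokines and receptors 24 passed, 19 of them lower, with a median of -0.39 with and without GFP 1. The scores of this list were 0.17, -0.80 and -0.27 in irisin fat and 0.75, 0.26 and -0.17 in GFP fat, so irisin 1 was above GFP 3. In 1 of the 24 (4.17%) every irisin library lay below every GFP library, against 2.90% of all genes. Among 19 inflammatory cytokines and NF-kB targets 17 were lower, with a median of -0.52, or -0.11 without GFP 1. Tnfaip3, an inhibitor of NF-kB signalling, was at 2.86, 2.63 and 3.0 FPKM in irisin fat and at 8.13, 3.47 and 3.59 FPKM in GFP fat.

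**Figure D4:**
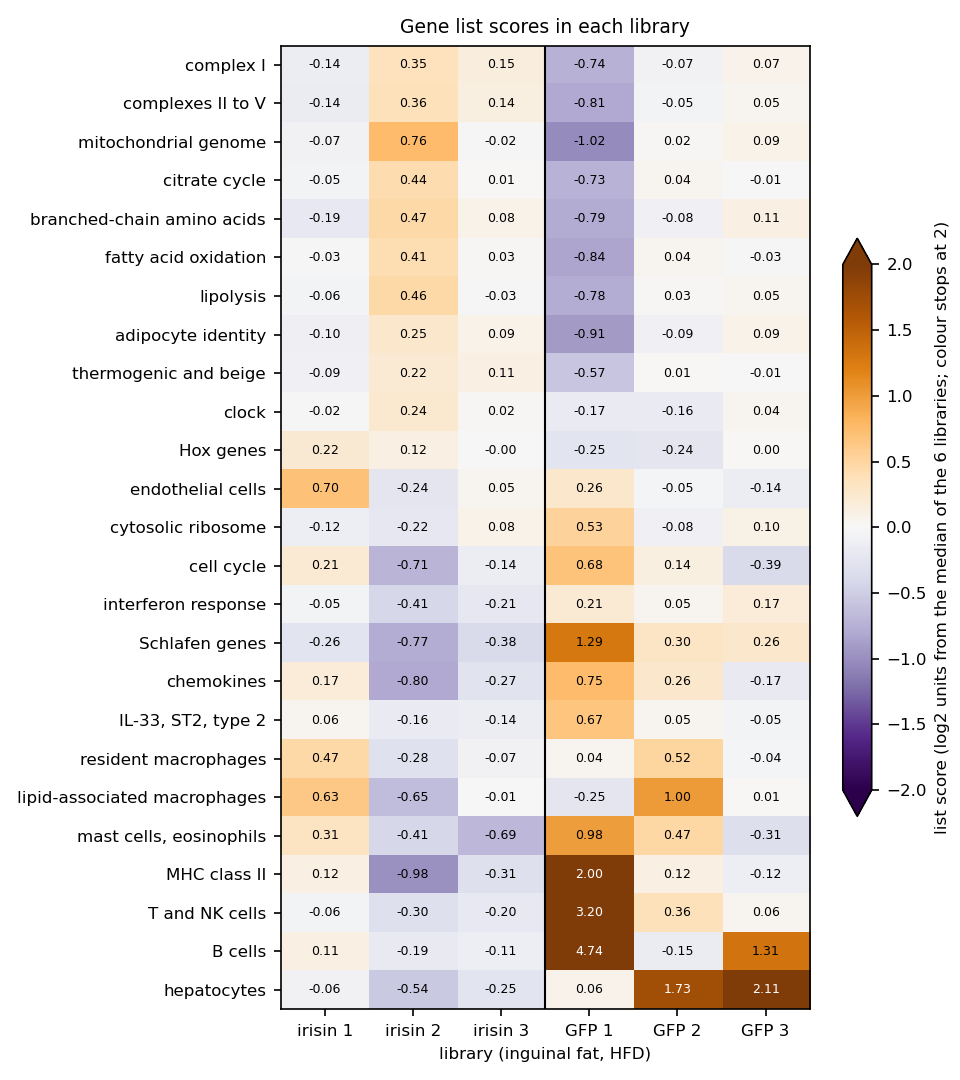
Score of each gene list in each library: the mean log2(FPKM + 0.5) of the members that passed the filter, less the median over the 6 libraries, with irisin 1 to 3 left of the line and GFP 1 to 3 right of it. Interferon scores are -0.05, -0.41 and -0.21 in irisin fat and 0.21, 0.05 and 0.17 in GFP fat.

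Genes of mitochondrial energy production were a little higher on average in irisin fat. GFP 1 had the lowest and irisin 2 the highest score of each of the lists below. All 36 subunits of respiratory complex I that passed were higher (52.1% of all genes were), with a median log2 difference of 0.35, as were all 41 subunits of complexes II to V with a median of 0.39. The 13 respiratory genes of the mitochondrial genome were all higher with a median of 0.49. The same held for 21 of 21 citrate cycle genes (median 0.35), for 19 of 19 genes of branched-chain amino acid breakdown (0.37) and for 24 of 25 genes of fatty acid oxidation (0.44). Every irisin library lay above every GFP library in 0 of the 36 complex I genes and 0 of the 41 genes of complexes II to V, against 3.29% of all genes. The same count was 2 of 13 for the mitochondrial genome, 1 of 21 for the citrate cycle, 1 of 19 for amino acid breakdown and 2 of 25 for fatty acid oxidation. GFP 1 was the lowest library for 36 of the 36 complex I genes, 41 of the 41 genes of complexes II to V, 12 of the 13 mitochondrial genes and 24 of the 25 genes of fatty acid oxidation. Without it the medians were 0.11 for complex I (34 higher and 2 lower, where 49.7% of all genes were higher), 0.11 for complexes II to V (40 higher, 1 lower), 0.20 for the mitochondrial genome (12 higher, 1 lower), 0.11 for the citrate cycle, 0.11 for amino acid breakdown and 0.14 for fatty acid oxidation, beside -0.0011 over all genes. Scores of the mitochondrial genome were -0.07, 0.76 and -0.02 in irisin 1 to 3 and -1.02, 0.02 and 0.09 in GFP 1 to 3. Those of complex I were -0.14, 0.35 and 0.15 in irisin fat and -0.74, -0.07 and 0.07 in GFP fat, so irisin 1 lay below GFP 2 and GFP 3. On chow the complex I median was -0.38, and in epididymal fat on HFD it was 0.25.

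Ndufc2, a subunit of complex I, was at 86.6, 119 and 108 FPKM in irisin fat and at 53.3, 82.1 and 95.1 FPKM in GFP fat. GFP 3 was above irisin 1, so the groups overlapped, and the log2 difference of 0.47 ± 0.22 was 0.23 without GFP 1. mt-Nd4, a complex I subunit made in mitochondria, was at 3129, 5172 and 3308 FPKM in irisin fat and at 1622, 3049 and 2916 FPKM in GFP fat. Its groups lay apart, with a log2 difference of 0.63 ± 0.34, or 0.34 without GFP 1, but irisin 1 and GFP 2 were close. Cpt2, the inner carnitine palmitoyltransferase, was at 88.6, 114 and 81.5 FPKM in irisin fat and at 41.9, 86.1 and 75.9 FPKM in GFP fat. Acads, the short-chain acyl-CoA dehydrogenase, was at 94.9, 129 and 98.2 FPKM in irisin fat and at 49.6, 87.6 and 94.7 FPKM in GFP fat, and Acad8, an enzyme of valine breakdown, at 12.4, 13.4 and 12.6 FPKM in irisin fat and at 7.31, 11.4 and 11.9 FPKM in GFP fat. In both, GFP 2 and GFP 3 came close to the irisin libraries and GFP 1 lay far below. Bcat2, which starts branched-chain amino acid breakdown, was at 32.9, 59.6 and 44.5 FPKM in irisin fat and at 23.6, 27.6 and 45.7 FPKM in GFP fat, with overlapping groups.

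GFP 1 was the lowest library for adipocyte genes as well. Of 27 genes of adipocyte identity 25 were higher, with a median of 0.38, but GFP 1 was the lowest library for 26 of the 27, and without it the median was 0.08, with 19 higher and 8 lower. Adipoq, the gene of the hormone adiponectin, was at 1544, 1665 and 1958 FPKM in irisin fat and at 841, 1677 and 1789 FPKM in GFP fat, and its difference of 0.33 was -0.01 without GFP 1. Lep, the gene of leptin, was at 1107, 995 and 2183 FPKM in irisin fat and at 873, 1269 and 1354 FPKM in GFP fat, where irisin 3 stood alone. Of 18 lipolysis genes 17 were higher (median 0.39, or 0.10 without GFP 1). Pnpla2, the first lipase of fat breakdown, was at 707, 1507 and 746 FPKM in irisin fat and at 366, 661 and 816 FPKM in GFP fat, so only irisin 2 was above all GFP libraries. Lipogenesis genes showed no common direction, with 11 higher and 8 lower and a median of 0.05 that was -0.08 without GFP 1, -0.06 with voom, -0.05 with plain sum scaling and -0.20 with array weights. Elovl6, a fatty acid elongase, was at 3.90, 3.10 and 3.49 FPKM in irisin fat and at 3.798, 6.84 and 4.96 FPKM in GFP fat, with irisin 1 just above GFP 1.

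Some thermogenic genes were highest in irisin 2, while the list as a whole was lowest in GFP 1. Ucp1, the uncoupling protein of brown and beige fat, was at 0.331, 0.183 and 0.409 FPKM in irisin fat and at 0.467, 0.670 and 0.0651 FPKM in GFP fat and did not pass the filter. Cidea, a droplet protein of brown and beige adipocytes, was at 13.5, 47.3 and 18.7 FPKM in irisin fat and at 7.65, 9.58 and 14.0 FPKM in GFP fat (log2 1.14 ± 0.52, or 0.95 without GFP 1), with irisin 2 far above the rest and irisin 1 below GFP 3. Dio2, the deiodinase that activates thyroid hormone, was at 0.783, 3.45 and 1.25 FPKM in irisin fat and at 0.455, 1.02 and 0.357 FPKM in GFP fat, again highest in irisin 2 and with irisin 1 below GFP 2. Ebf2, a transcription factor of beige and brown precursors, was at 2.64, 4.44 and 2.82 FPKM in irisin fat and at 1.52, 2.09 and 2.63 FPKM in GFP fat, where the groups just failed to overlap (log2 0.55 ± 0.21, or 0.38 without GFP 1). Of 26 thermogenic and beige fat genes 19 passed, 15 higher and 4 lower, with a median of 0.18, or 0.05 without GFP 1 with 10 higher and 9 lower, and 0.39 without GFP 2. GFP 1 was the lowest library for 13 of the 19.

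Some clock genes were higher in irisin fat and others lower. The 19 genes had a median of 0.15 (13 higher, 6 lower) of 0.14 without GFP 1 and of 0.04 without irisin 2, and 4 of them lay above every GFP library in every irisin library, against 3.29% of all genes. Dbp, an output gene of the clock (chromosome 7, positions 45705088 to 45710203), was at 11.6, 9.69 and 7.50 FPKM in irisin fat and at 5.19, 5.58 and 5.23 FPKM in GFP fat. The 3 GFP libraries were nearly equal and the log2 difference was 0.77 ± 0.23, or 0.75 without GFP 1, and 0.74 on chow. Nr1d1, the clock repressor REV-ERBα, was at 59.7, 64.7 and 40.2 FPKM in irisin fat and at 22.7, 29.5 and 40.1 FPKM in GFP fat, with irisin 3 and GFP 3 nearly equal (log2 0.83 ± 0.34, or 0.64 without GFP 1). Tef, a relative of Dbp, was at 16.9, 21.6 and 17.6 FPKM in irisin fat and at 11.9, 12.8 and 16.6 FPKM in GFP fat. Cry1, a repressor of the clock, lay the other way, at 3.16, 3.10 and 3.44 FPKM in irisin fat and at 5.0, 3.78 and 3.51 FPKM in GFP fat. Nr1d1 overlaps Thra and Dbp overlaps Sphk2 on the opposite strand, and the labels do not settle whether strand was used in counting, so reads of the overlaps cannot be told apart. The hour at which the tissue was taken is not given either, and its part in these values was not tested.

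Hox genes, which record the position of a tissue along the body axis, were also put on a list after their values were seen. Of 30 listed genes 24 passed, 22 of them higher, with a median of 0.24, or 0.17 without GFP 1 with 21 higher. In 4 of the 24 (16.7%) every irisin library lay above every GFP library, against 3.29% of all genes. Without GFP 1, 5 of the 24 (20.8%) lay above both remaining GFP libraries in every irisin library, against 5.79% of all genes. The list was made with these values known, so the counts are no support for a difference. Hoxa9 (chromosome 6, positions 52223100 to 52231089) was at 3.86, 4.43 and 4.09 FPKM in irisin fat and at 0.948, 2.49 and 1.92 FPKM in GFP fat. It averaged 4.13 ± 0.286 FPKM in irisin fat and 1.79 ± 0.781 FPKM in GFP fat (SD, n = 3 each), a log2 difference of 1.08 ± 0.28, or 0.78 without GFP 1 (limma adjusted p = 0.941 with all 6 libraries). Its neighbour Hoxa10 (positions 52231197 to 52240854) was at 6.36, 8.23 and 9.51 FPKM in irisin fat and at 3.95, 5.20 and 4.54 FPKM in GFP fat (log2 0.74 ± 0.17, or 0.65 without GFP 1). Hoxa9, Hoxa10 and Hoxb8 were among the 4 genes in which all irisin libraries stood above all GFP libraries. On chow the differences were -0.09 for Hoxa9 and -0.17 for Hoxa10, and in epididymal fat on HFD -0.15 and -0.30.

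Groups with little or unstable difference were the matrix, the vessels and the cycle. The 40 collagen and matrix genes had a median of 0.13 (30 higher, 10 lower) that was -0.07 without GFP 1, -0.17 without irisin 1 and -0.06 with array weights. Eln, the gene of elastin, was at 23.7, 14.8 and 35.8 FPKM in irisin fat and at 15.1, 14.9 and 15.4 FPKM in GFP fat, so the GFP libraries were close and the irisin libraries spread. Of 18 endothelial markers 17 were higher, with a median of 0.17. The median was 0.29 without GFP 1, with 18 of 18 higher, and -0.15 without irisin 1. Among 25 cell cycle genes 23 were lower, with a median of -0.35, or -0.08 without GFP 1, and Mcm4, part of the replication helicase, was at 3.91, 2.61 and 3.73 FPKM in irisin fat and at 7.88, 4.78 and 3.83 FPKM in GFP fat. All 52 cytosolic ribosomal protein genes were lower, with a median of -0.27, or -0.10 without GFP 1 and 0.01 with array weights, and GFP 1 was the highest library for 47 of them.

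**Figure D5:**
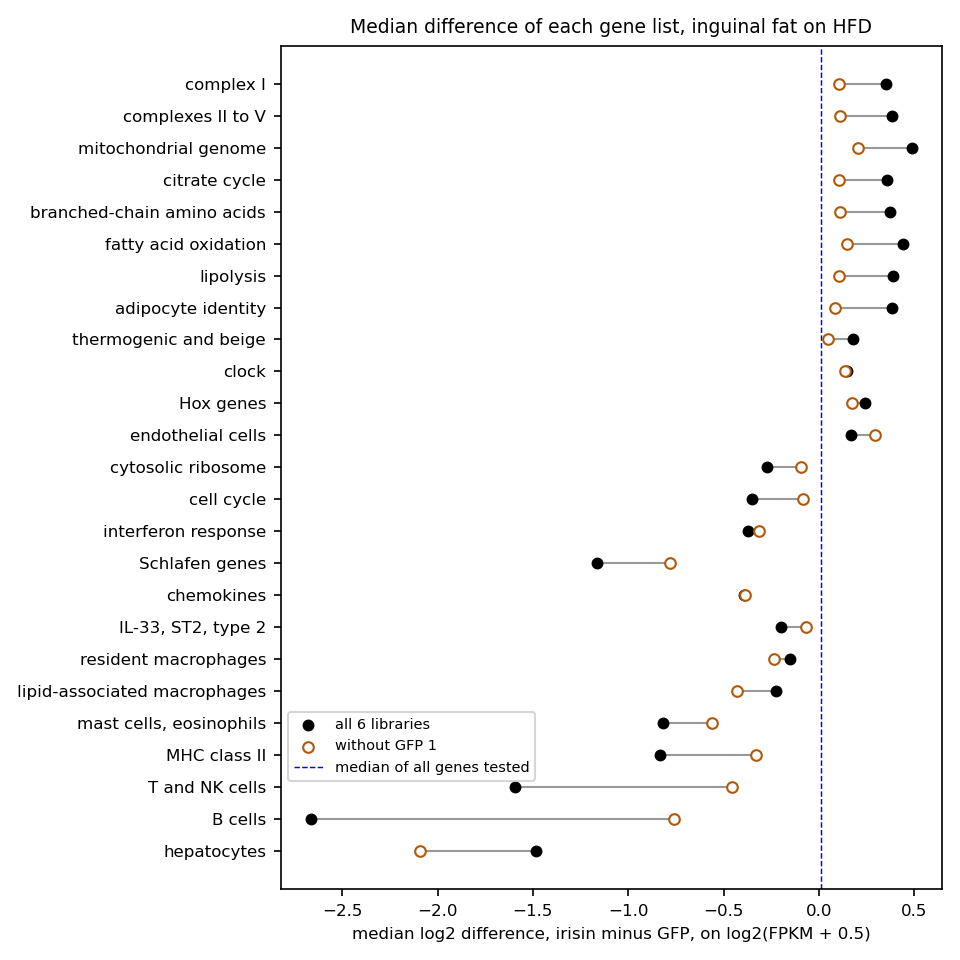
Median log2 difference (irisin minus GFP) of each gene list with all 6 libraries (filled) and without GFP 1 (open), with the median of all 14611 genes as a dashed line. The complex I median is 0.35 and 0.11, the interferon median -0.37 and -0.31 and the T and natural killer cell median -1.6 and -0.46.

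Genes of hepatocytes were high in GFP 2 and GFP 3, while their sum in GFP 1 was near those of the irisin libraries. This list, too, was made after values were seen. Its 30 genes summed to 47.4, 44.3 and 38.4 FPKM in irisin 1 to 3 and to 51.3, 174 and 245 FPKM in GFP 1 to 3. In irisin 1 to 3, 7, 12 and 9 of them were listed at 0 and in GFP 1 to 3, 11, 0 and 0. Serpina1b, a gene of the protease inhibitor α1-antitrypsin (chromosome 12, positions 103728156 to 103830373), had the lowest p of all 14611 genes. It was at 0.426, 0.528 and 0.623 FPKM in irisin fat and at 2.89, 3.02 and 5.40 FPKM in GFP fat, a log2 difference of -2.01 ± 0.34 with an unadjusted p of 9.4e-05 and an adjusted p of 0.722 in limma. Each GFP library lay far above each irisin library, and the difference was -2.16 without GFP 1, -0.67 on chow and 0.07 in epididymal fat on HFD. Serpina1b is a close copy of Serpina1a and overlaps Serpina1d, and reads may have been split between them. Gnmt, a methyltransferase of glycine, was at 0.359, 0.249 and 0.231 FPKM in irisin fat and at 1.18, 1.92 and 3.58 FPKM in GFP fat. Fabp1, the fatty acid carrier of liver, was at 0.392, 0 and 0.202 FPKM in irisin fat and at 0.736, 10.6 and 18.4 FPKM in GFP fat. Apoa2, an apolipoprotein, was at 1.11, 0.837 and 0.311 FPKM in irisin fat and at 0.284, 23 and 24.7 FPKM in GFP fat. Alb, the gene of albumin, was at 3.24, 19.6 and 7.78 FPKM in irisin fat and at 2.74, 33.1 and 73.5 FPKM in GFP fat. Of the 12 members that passed 11 were lower (47.9% of all genes were), with a median of -1.49, or -2.09 without GFP 1, and -2.54 with voom. In 4 of the 12 (33.3%) every irisin library lay below every GFP library, against 2.90% of all genes. For 6 of the 12, GFP 1 was the lowest of the 6 libraries. Fabp1 and Gnmt reached the filter in GFP libraries alone and had to differ. The list was made with values known, so these counts are no support for a difference. The part that liver RNA or another source played in these libraries was not tested.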

How the data were processed

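Inguinal and epididymal fat was profiled from polyadenylated RNA, per the labels' protocols. Per the submitters' processing notes, HISAT2 2.0.5 and featureCounts 1.5.0-p3 were used. The deposited table of the authors gives FPKM per gene for 24 libraries. It also holds 8 columns that equal the group means, which were not used. The genome build of the table and the strand setting of the counting are not given in the sources used here, and coordinates of genes are those of the table. Multiplied by gene length, 100% of the values in a library were whole multiples of a common unit (tolerance 0.01), which gave back the reads per gene. They came to 14.6 to 19.7 M per library. The scaling total behind the authors' FPKM was 1.15 times this sum in the library GFP 1 and 0.912 to 0.969 times in the other 5 libraries compared. FPKM of GFP 1 were thus set lower, relative to the other 5, than scaling by this sum would set them. That raises the differences of irisin minus GFP. No 2 libraries were identical.

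Genes with at least 0.5 FPKM in 3 of the 6 libraries were kept. limma 3.58.1 in R 4.3.3 was fitted to log2(FPKM + 0.5), with the 4 inguinal groups (12 libraries) in 1 fit, moderated variances that follow the mean, and Benjamini-Hochberg adjustment over 14611 genes. Differences on this scale understate the change of genes with low values. The difference between diets was tested in the same fit and that between depots in a fit of all 24 libraries. The deposited unit is not a count, so edgeR and DESeq2 were not applied, and voom of limma, run on recovered reads, served as an alternative. On the simulated data, with 200 of 14611 genes changed and no outlying library, 5.26% of 114 calls were false.

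The genes, 55 gene lists, comparisons and alternatives were chosen with earlier results of these data known, and 3 further lists (hepatocytes, Hox genes, Schlafen genes) after values were seen. Lists are described by counts and medians, without a test of the list. Named genes were the 8 highest and 8 lowest differences and the 8 higher and 8 lower genes with the smallest p among protein-coding genes whose groups lay apart and whose mean reached 1 FPKM in either group, then 13 genes of the pathway and of fat, up to 4 members with the smallest p of each of 31 lists, and up to 6 genes in each direction without GFP 1. Tbx15, Wt1, Ckm, Ccl19, Glycam1, Isg15, Ifi27, Rsad2, Ifit1, Trim30a, Oasl1, Cxcl10, Cry1, Hoxb8 and Alb were chosen after their values were seen. Not every gene that the rule names is given. Promoter windows come from RefSeq (GRCm38.p6), matched by symbol. Plots were made in Python 3.11.15 with matplotlib 3.10.9.

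Alternatives were pseudocounts of 1 and 0.1, quantile and upper quartile scaling, a filter of 1 FPKM or none, voom, robust moderation, array weights, a replicate block, the 6 libraries alone, leaving out each library, and leaving out the libraries rich in other tissues. Plain sum scaling and a fit of 5 libraries without GFP 1 were added after seeing the data.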

Additional observations from a re-analysis of the deposited data

Results flagged for a closer look

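Some results had every library on one side in a group and every library on the other side in another. They were picked by that direction alone, which is no test of the difference. limma's own tests of the difference between diets and between depots called none of these genes. The values are differences between 2 log2 differences, each irisin minus GFP.

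Between inguinal and epididymal fat on HFD, Hoxa10 differed by 1.05, with 0.74 in inguinal fat and -0.30 in epididymal fat (limma adjusted p = 1.0). Haao, an enzyme of tryptophan breakdown, differed by -3.02, with -2.26 in inguinal fat and 0.76 in epididymal fat. It lay at 0.798, 0.184 and 0.593 FPKM in irisin 1 to 3 and at 21.5, 1.42 and 2.0 FPKM in GFP 1 to 3 of inguinal fat, so its size rests largely on GFP 1, and without that library the inguinal difference was -1.15.

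Between HFD and chow in inguinal fat, Cd79b differed by -3.57, with -2.88 on HFD and 0.69 on chow, and GFP 1 held 122 FPKM of it against 0.576 to 3.68 FPKM in the other 5 libraries. Msantd3 differed by 0.934, with 0.64 on HFD and -0.30 on chow. Dhx58 differed by -1, with -0.49 on HFD and 0.51 on chow. The score of the interferon response list, which contains Dhx58, differed by -0.623 and was not tested. The mitochondrial genes mt-Nd4 and mt-Cytb differed by 1.06 and 1.1, and the enzyme genes Acads and Acad8 by 0.869 and 0.55. In all of the last 4 genes GFP 1 was the lowest of the 6 HFD libraries, and the chow libraries of irisin fat held 4.83 to 279 FPKM of the muscle gene Ckm. Their part in these differences was not tested.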

How the results depend on the processing

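The count of 0 genes called held under every alternative run except no filter, where 3 genes were called, all at low levels. They were Gm23940 (log2 difference 1.12, at 0.516, 0.714 and 0.531 FPKM in irisin fat and 0 in all 3 GFP libraries), Gm36189 and Ighv6-4. Gm23940 also passed the main filter, where it was not called. It did so through the irisin libraries alone and had to differ. With no filter 1 gene was called for the difference between diets and 1 for that between depots. Leaving out 1 library gave 0 to 4 calls for the depots, with 4 without GFP 2 of epididymal fat on HFD and 1 without GFP 3 of inguinal fat on chow. At an unadjusted p under 0.05 the comparison gave 175 to 1456 genes over the alternatives, the difference between diets 381 to 3441 and that between depots 207 to 986. The split into higher and lower genes was 144 and 218, but 62 and 222 with voom, 71 and 253 with plain sum scaling and 204 and 172 with quantile scaling. The median of all genes was -0.09 with voom and -0.08 with plain sum scaling, beside 0.01 in the main fit. Scaling acts on whole libraries, so the list medians above, those of the mitochondrial lists included, depend on it as well. With the replicate block 0 genes were called, and 567 stood at an unadjusted p under 0.05. The deviations of irisin and GFP libraries of the same number had correlations of 0.321, -0.0465 and 0.182. Those of different numbers had correlations from -0.433 to 0.299. So few pairs cannot decide whether the numbers pair the libraries.

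Of 3830 values of 148 genes 48 turned their direction, in 15 genes, the cause not tested. Without GFP 1, in each of the 3 fits that leave it out, values were -0.18 for Itgb5, 0.14 for Il33, -0.015 for Adipoq, -0.044 for Itgb1, -0.0045 for Ebf1, 0.44 for Timd4 and -0.0037 for Cd163. With quantile scaling they were -0.088 for Itgb5 and -0.066 for Itgb1. With voom they were -0.078 for Itgb5, -0.036 for Itgb1 and -0.0066 for Ebf1, and with plain sum scaling -0.070, -0.033 and -0.0096. With array weights they were 0.051 for Il33, 0.13 for Timd4, -0.22 for Cd163, -0.26 for mt-Atp6, -0.13 for Acacb, -0.044 for Nr1h3 and -0.0094 for Ebf1. Leaving out 1 library at a time gave ranges of -0.38 to 0.016 for Itgav, -0.18 to 0.31 for Itgb5, -0.88 to 0.14 for Il33, -0.015 to 0.53 for Adipoq, -0.13 to 0.44 for Lep, -0.68 to 0.20 for Adgre1, -1.05 to 0.097 for Trem2, -0.044 to 0.17 for Itgb1, -0.092 to 0.25 for Ebf1, -1.88 to 0.44 for Timd4, -0.0037 to 0.49 for Cd163 and -0.17 to 0.55 for Egfl7. Of 806 list medians 14 moved by more than the spread between libraries, in 6 lists: hepatocytes to -2.54 with voom, Schlafen genes to -0.66 and ribosomal proteins to 0.0078 with array weights, B cells to -0.89 and lymph node genes to -0.69 with array weights and to -0.76 and -0.46 without GFP 1, and the irisin precursor and receptor to -0.15 without GFP 1. The interferon median was -0.51 to -0.23 over the alternatives.

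With 3 libraries a group and a median standard error of 0.23, differences of the size seen in the mitochondrial lists could not be told from the spread for a single gene.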

Other observations

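Further gene groups are given as values. Genes of triglyceride synthesis and lipid droplets were higher in irisin fat in 19 of 21 members that passed the filter, with a median log2 difference of 0.37, or 0.12 without GFP 1, beside 0.50 in epididymal fat on HFD and -0.35 on chow. Mitochondrial ribosomal proteins were higher in 42 of 46 (median 0.22, or 0.03 without GFP 1), antioxidant and NRF2 target genes in 20 of 23 (median 0.22, or -0.03 without GFP 1) and glycolysis genes in 14 of 16 (median 0.27, or 0.05 without GFP 1). Erythroid genes were higher in 7 of 7, with a median of 0.44, or 0.33 without GFP 1. Hba-a2, a gene of the alpha chain of haemoglobin with a close copy, lay at 151, 98.3 and 115 FPKM in irisin 1 to 3 and at 60.5, 27.7 and 137 FPKM in GFP 1 to 3.

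Of 22 genes of cholesterol synthesis and sterol sensing 13 were lower, with a median of -0.04. Without GFP 1 the count was 20 lower and 2 higher, with a median of -0.21. Complement genes were lower in 12 of 17, with a median of -0.17, and without GFP 1 in 14 of 17, with a median of -0.28. Neutrophil markers passed the filter in 5 of 11 cases and were lower in these 5, with a median of -0.85, or -0.31 without GFP 1. Retnlg, a resistin-like gene of neutrophils that is among these 5, reached the filter in GFP libraries alone and had to differ. It lay at 0.365, 0 and 0.188 FPKM in irisin fat and at 1.54, 0.543 and 0.629 FPKM in GFP fat.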
